A study of Mus musculus with 23 samples.

Results

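Securin, separase and the cohesin ring, which set when sister chromatids come apart, were followed in mice whose Bub1b gene, which encodes the spindle checkpoint protein BubR1, carries mutant alleles. The group held 9 of the 24062 genes of the count table, found by symbol: Pttg1 (securin), Espl1 (separase), the cohesin subunits Rad21, Smc1a, Smc3, Stag1 and Stag2, and the cohesin-associated regulators Pds5a and Pds5b. Pttg1 was chosen by its measured count, which was low in HH libraries of both tissues, and the other 8 because they act with it on sister chromatid cohesion. The values by which Pttg1 was chosen are therefore given below as a description with no test, and the 8 partners were tested. All 9 genes passed the filter on low counts in muscle (14580 genes tested), in fat (16266) and in the fit of both tissues (14274).

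Libraries were made from whole tissue of HL1002P, HH and WT mice, 8 to 10 months old, on a mixed 129Sve/C57BL/6 background. HL1002P mice carry 1 hypomorphic Bub1b allele (H) and 1 missense allele, HH mice carry H on both chromosomes, and WT mice carry neither; the alleles are germline, so every cell of the tissue has them. Gastrocnemius, a hind limb muscle, gave 4 HL1002P, 3 HH and 4 WT libraries, and fat, which the labels call IAT without further words, gave 4 of each. The labels give replicates as separate samples and do not say whether a muscle and a fat library share a mouse, so p-values measure the spread between these samples.

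Before anaphase, sister chromatids are held together by cohesin, a ring of Smc1a, Smc3 and the kleisin Rad21, to which Stag1 or Stag2 and Pds5a or Pds5b bind. Separase is the protease that opens the ring by cutting the kleisin, and securin holds separase inactive until the anaphase-promoting complex marks securin for destruction. BubR1 is part of the spindle assembly checkpoint, which keeps that complex in check until all chromosomes are attached. Cohesin also shapes chromatin loops in cells that do not divide, and most nuclei of adult muscle have left the cell cycle.

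Of the 9 genes, 7 matched the RefSeq promoter table (GRCm38.p6), which gives 300 bases around 1 annotated start of a gene. Shown here are Espl1 and Pds5b, the partners past the test in fat of both mutants. The table's Pttg1 window lies wholly inside the gene as placed below, away from its outermost start, and was not used here. Capitals mark the letters TTTGAA (the cell cycle genes homology region of late cell cycle promoters) and CCAAT (the NF-Y box), searched on both strands, so that CCAAT on the other strand reads ATTGG; the motifs do not overlap each other.
Espl1, chr15:102296043-102296342, plus strand: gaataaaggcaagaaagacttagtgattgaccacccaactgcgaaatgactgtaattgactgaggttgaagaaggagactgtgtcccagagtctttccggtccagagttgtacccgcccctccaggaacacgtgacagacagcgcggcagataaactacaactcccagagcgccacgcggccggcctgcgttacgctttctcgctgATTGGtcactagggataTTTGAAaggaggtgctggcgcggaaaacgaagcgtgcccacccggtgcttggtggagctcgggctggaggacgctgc
Pds5b, chr5:150673577-150673876, plus strand: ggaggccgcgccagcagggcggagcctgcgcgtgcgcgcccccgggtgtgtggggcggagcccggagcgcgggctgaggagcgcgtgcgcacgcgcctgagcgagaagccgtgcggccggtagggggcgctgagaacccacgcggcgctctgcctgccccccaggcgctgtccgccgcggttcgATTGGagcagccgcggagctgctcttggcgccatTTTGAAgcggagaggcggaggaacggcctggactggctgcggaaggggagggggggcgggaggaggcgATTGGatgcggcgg
Espl1 held TTTGAA at position -27 and CCAAT at position -44, counted in bases from the start that the table uses. Pds5b held TTTGAA at position -32 and CCAAT at positions -66 and 36. The windows of Smc3, Smc1a, Stag1 and Pds5a, also searched, held no TTTGAA, and of these Smc1a and Stag1 held CCAAT. Whether the motifs go with the rise in fat was not tested. TTTGAA occurred in 17.9% and CCAAT in 37.4% of the 32851 promoters of the table, so a match is common, and it is a description of the letters and not of a bound site. G and C made up 56.0% of the Espl1 window and 75.7% of the Pds5b window.

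Library totals were 34.1 to 55.3 M counts in muscle and 22.6 to 58.8 M counts in fat. Levels below are normalised read counts, as counts per M library counts (CPM) on library sizes scaled within a tissue, or per kilobase of exon (RPKM) where genes are compared. Xist was detected in 2 of 4 HL1002P, 1 of 3 HH and 2 of 4 WT muscle libraries, and in 1 of 4 HL1002P, 1 of 4 HH and 2 of 4 WT fat libraries. The summed CPM of 8 skeletal muscle markers was 144685 to 205161 in muscle, and that of 8 fat cell markers 6367 to 39075 in fat, against 300 to 723 in muscle. Some fat libraries stood apart: the skeletal muscle markers summed to 5161 CPM in HL1002P replicate 4, 13210 in HH replicate 1 and 14726 in WT replicate 3, against 36.0 to 1366 in the others. HL1002P fat replicate 4 and HH fat replicate 1 also had the lowest summed proliferation markers of their groups (174 and 226 CPM). Bub1b itself fell in HL1002P muscle (0.210 ± 0.0424 CPM, against 0.8289 ± 0.102 in WT; SD, n = 4 each; log2 fold change -1.96 ± 0.32 SE, edgeR quasi-likelihood adjusted p = 0.0498), a call that none of the 8 fits lacking 1 library made. In HH muscle it had 0.395 ± 0.109 CPM (n = 3; log2 fold change against WT -1.07 ± 0.33, edgeR adjusted p = 0.147). In fat it averaged 17.2 ± 7.56 CPM in HL1002P, 10.2 ± 3.51 in HH and 9.87 ± 1.99 in WT (n = 4 each).

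Pttg1 (gene ID 30939; chr11:43420244-43427463, minus strand) encodes securin. In muscle it was at 33.9, 28.8, 27.7 and 30.5 CPM in the HL1002P libraries, at 1.19, 1.35 and 1.82 CPM in the HH libraries, and at 29.1, 27.4, 32.5 and 40.7 CPM in the WT libraries. All 3 HH libraries were far below every other muscle library, while the HL1002P libraries lay within the range of WT. The 3 HH libraries together held 203 counts of the gene, against 5317 in the 4 HL1002P and 5893 in the 4 WT libraries. The HH mean was 4.48% of the WT mean, 22.3-fold lower, with a fitted log2 difference of -4.48 ± 0.20 (SE); against HH, HL1002P was higher by 4.37 ± 0.20.

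In fat, Pttg1 had 28.0, 26.0, 22.97 and 20.7 CPM in the HL1002P libraries, 5.63, 8.99, 9.26 and 6.74 CPM in the HH libraries, and 20.3, 26.5, 23.1 and 36.4 CPM in the WT libraries. The HH libraries again lay below all others, though less far, and HL1002P again lay within WT. The HH mean was 28.8% of the WT mean, with a log2 difference of -1.80 ± 0.22, and HL1002P was higher than HH by 1.67 ± 0.22. The difference between HH and WT was thus larger in muscle, and the 2 log2 values differed by 2.73 ± 0.30 in the fit of both tissues. The contrasts with HH carry no test, because they chose the gene. A blastn search for long, close matches to the longest coding Pttg1 transcript found no other gene's transcript in the GENCODE M21 annotation. Short shared stretches were not searched for. How reads that map to several places were counted was not given in the sources used here. In bulk tissue, fewer cells of a type that holds a transcript and less of it per cell cannot be told apart.

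HL1002P against WT is the contrast of Pttg1 that did not choose it, although the WT libraries are those of the choosing contrast. In HL1002P muscle Pttg1 averaged 30.2 ± 2.70 CPM, against 32.4 ± 5.91 CPM in WT (SD, n = 4 each; log2 fold change -0.10 ± 0.15 SE, edgeR adjusted p = 0.843). In HL1002P fat it averaged 24.4 ± 3.24 CPM, against 26.6 ± 7.02 CPM in WT (log2 fold change -0.12 ± 0.21, edgeR adjusted p = 0.665). Neither passed the test, and the groups overlapped in both tissues. The sign of this small difference depended on single libraries: without WT muscle replicate 4 it was 0.03 in muscle, and in fat it was 0.07 without WT replicate 4 and 0.01 without HL1002P replicate 4.

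**Figure D1:**
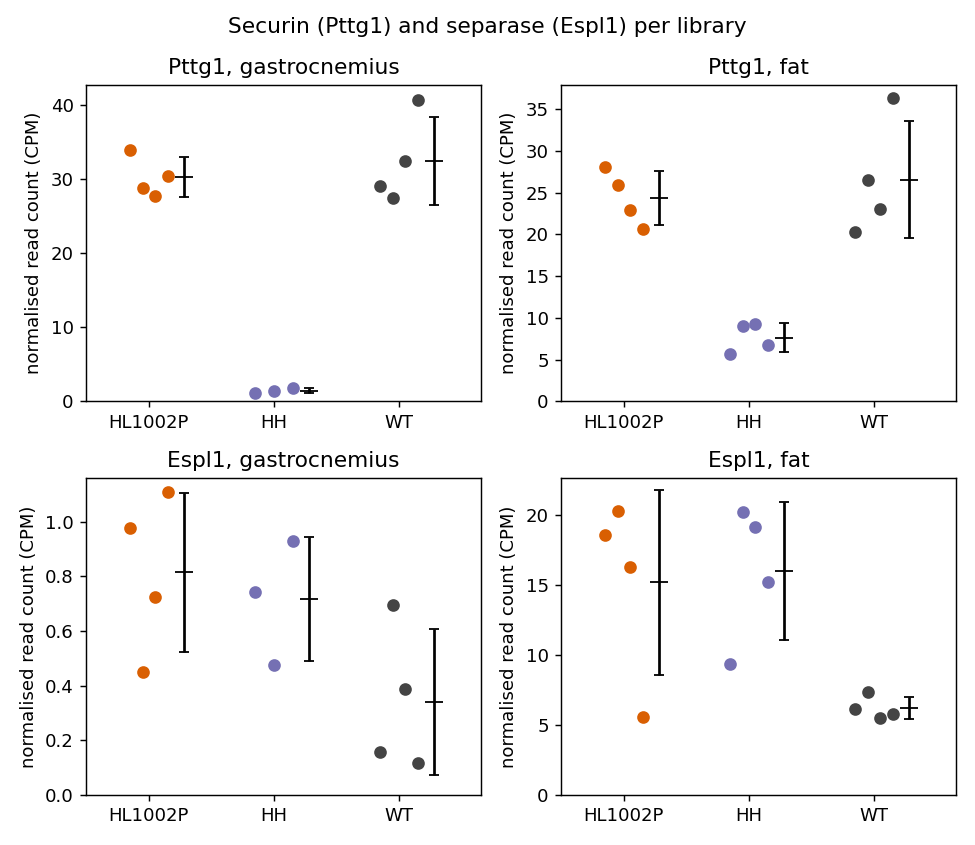
Normalised read counts (CPM) of Pttg1 (top) and Espl1 (bottom) in gastrocnemius (left) and fat (right). Each point is a library and the bar beside it the mean ± SD; Pttg1 sits at 1.19 to 1.82 CPM in HH muscle and at 5.63 to 9.26 CPM in HH fat, below all HL1002P and WT libraries, while Espl1 in fat is at 5.47 to 7.31 CPM in WT.

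Espl1 (gene ID 105988; chr15:102296254-102324357, plus strand), the gene of separase, was scarce in muscle and moved the other way in fat. In fat it had 18.5, 20.3, 16.3 and 5.57 CPM in the HL1002P libraries, 9.34, 20.2, 19.1 and 15.2 CPM in the HH libraries, and 6.15, 7.31, 5.47 and 5.76 CPM in the WT libraries. Every HH library was above every WT library, and so were 3 of the 4 HL1002P libraries; HL1002P replicate 4 lay among WT. Espl1 rose in HL1002P fat by 1.30 ± 0.36 on the log2 scale (± SE, adjusted p = 0.0224 by edgeR) and in HH fat by 1.37 ± 0.36 (edgeR adjusted p = 0.0255), against the same WT libraries.

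In muscle Espl1 had a total of 146 counts in the HL1002P libraries, 99 in HH and 67 in WT. Its mean was 0.816 ± 0.291 CPM in HL1002P (n = 4), 0.718 ± 0.228 in HH (n = 3) and 0.339 ± 0.267 in WT (n = 4), and the groups overlapped. The log2 fold change against WT was 1.24 ± 0.52 in HL1002P and 1.05 ± 0.56 in HH, and neither passed the test (edgeR adjusted p = 0.453 and 0.369).

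The ratio of securin to separase transcript, Pttg1 RPKM over Espl1 RPKM, is free of the scaling of libraries. In muscle the median ratio was 138 in HL1002P (104 to 243), 7.42 in HH (6.06 to 10.8) and 515 in WT (150 to 1331). In fat it was 5.55 in HL1002P (4.87 to 14.1), 1.76 in HH (1.69 to 2.29) and 14.9 in WT (12.5 to 24.0). The HH libraries had the lowest ratios of each tissue, and in fat 3 of the 4 HL1002P libraries lay between HH and WT. The muscle ratios of WT rest on few Espl1 counts. Since Pttg1 was chosen for its low level in HH, these ratios are a description.

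**Figure D2:**
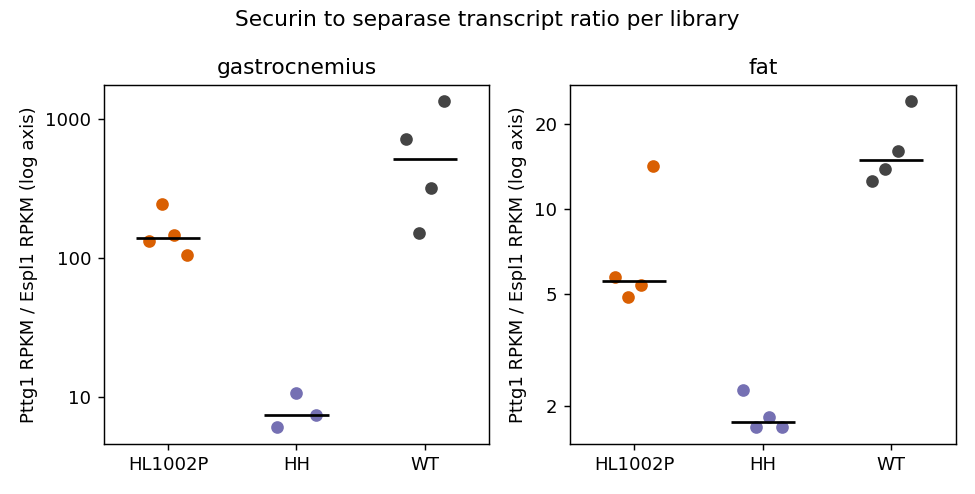
Ratio of Pttg1 RPKM to Espl1 RPKM per library on a log axis, in gastrocnemius (left) and fat (right), with the group median as a line. HH libraries are at 6.06 to 10.8 in muscle and 1.69 to 2.29 in fat, and HL1002P fat replicate 4, at 14.1, sits within WT.

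Per kilobase of exon, Pttg1 was the most abundant of the 9 genes in HL1002P muscle (17.1 ± 1.53 RPKM) and in WT muscle (18.4 ± 3.35), and rank 8 in HH muscle (0.823 ± 0.186), above Espl1 alone. In WT muscle it was followed by Rad21 (15.2 ± 1.08 RPKM), whose range of 14.2 to 16.7 RPKM overlapped that of Pttg1 (15.5 to 23.1), then by Stag2 (8.29 ± 0.997) and Smc1a (7.27 ± 0.609). Smc3, Pds5b, Pds5a and Stag1 came next at 4.23 to 5.17 RPKM, and Espl1 last at 0.0505 ± 0.0398. In WT fat the order was led by Rad21 (34.0 ± 1.16 RPKM), Smc1a (24.1 ± 1.15) and Stag2 (16.3 ± 2.18). Pttg1 ranked 4 there (15.1 ± 3.97 RPKM), and it ranked 6 in HL1002P fat and 8 in HH fat.

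Separase and 4 of the 7 cohesin and Pds5 genes rose in HL1002P fat, and separase and Pds5b in HH fat. Of the 8 partners, 5 rose in HL1002P fat against WT and none fell (31.8% of all genes tested passed in either direction and 17.3% were higher). Their median log2 fold change was 0.42, and that of all genes -0.07. In HH fat 2 of the 8 rose, Espl1 and Pds5b (20.8% of all genes passed and 12.3% were higher), and the median was 0.27, against -0.06 over all genes. Both comparisons share the WT libraries.

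Smc3 (chr19:53600396-53645831), an ATPase arm of the ring, had 82.3, 81.1, 70.4 and 61.6 CPM in the HL1002P fat libraries, 59.3, 67.7, 69.5 and 70.1 CPM in HH, and 45.9, 54.6, 57.9 and 60.9 CPM in WT. Every HL1002P library was above every WT library, whereas HH replicate 1 lay within WT. Smc3 rose in HL1002P fat (log2 fold change 0.43 ± 0.12, edgeR adjusted p = 0.0235), and did not pass in HH fat (log2 fold change 0.28 ± 0.12, edgeR adjusted p = 0.108). Smc1a (chrX:152016428-152061973), the other arm, had 155, 171, 144 and 113 CPM in HL1002P, 121, 138, 144 and 139 CPM in HH, and 108, 109, 118 and 117 CPM in WT. It rose in HL1002P (0.37 ± 0.12, edgeR adjusted p = 0.0436), with replicate 4 among WT, and did not pass in HH (0.26 ± 0.12, edgeR adjusted p = 0.144), where all libraries lay above WT. Of 9 alternatives other than leaving 1 library out, 3 kept the HL1002P call of Smc1a. The call was lost with no filter on low counts, limma voom, the replicate block, the Xist or lymphocyte covariate, and the compared groups alone.

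Rad21 (chr15:51962604-51993538), the kleisin that separase cuts, had 167, 179, 160 and 135 CPM in HL1002P fat, 149, 144, 151 and 189 CPM in HH fat, and 134, 129, 140 and 135 CPM in WT fat. All HH libraries were above WT, and HL1002P replicate 4 was not. The log2 fold change was 0.25 ± 0.12 in HL1002P and 0.23 ± 0.12 in HH, and neither passed the test (edgeR adjusted p = 0.121 and 0.168). Groups did not overlap for 2 of the 8 partners in HL1002P fat (Smc3 and Pds5b) and for 4 in HH fat (Espl1, Rad21, Smc1a and Pds5b), all with the mutant higher; 15.1% and 15.0% of all genes had such groups in HL1002P and in HH fat.

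Stag1 and Stag2 are alternative subunits that recruit the ring to chromatin. Stag2 (chrX:42149297-42277186) had 156, 164, 138 and 109 CPM in HL1002P fat, 121, 118, 120 and 130 CPM in HH fat, and 93.0, 91.1, 105 and 121 CPM in WT fat. It rose in HL1002P (log2 fold change 0.47 ± 0.14, edgeR adjusted p = 0.0266), with replicate 4 again within WT, and was at 0.26 ± 0.14 in HH (edgeR adjusted p = 0.181). Stag1 (chr9:100597709-100958544) had 59.4 to 74.4 CPM in HL1002P, 57.0 to 65.5 in HH and 54.8 to 65.2 in WT, and did not pass in HL1002P (0.21 ± 0.10, edgeR adjusted p = 0.105). The ratio of Stag2 to Stag1 RPKM in fat was 2.06 ± 0.260 in HL1002P, 1.95 ± 0.133 in HH and 1.73 ± 0.126 in WT (SD, n = 4 each), with overlap between each mutant and WT.

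The Pds5 proteins bind the ring and control how long it stays on chromatin. Pds5b (chr5:150673713-150810669) had 58.6, 60.3, 56.6 and 47.7 CPM in HL1002P fat, 47.8, 47.7, 50.2 and 52.3 CPM in HH fat, and 37.0, 33.5, 41.3 and 44.3 CPM in WT fat. It was the cohesin gene with the smallest p in both comparisons, and every mutant library lay above every WT library. Pds5b rose by 0.52 ± 0.11 in HL1002P (edgeR adjusted p = 0.0102) and by 0.34 ± 0.11 in HH (edgeR adjusted p = 0.0461). Pds5a (chr5:65605719-65698236) had 59.96 to 94.7 CPM in HL1002P, 62.7 to 82.1 in HH and 53.6 to 69.4 in WT, and passed the test neither in HL1002P (0.41 ± 0.15 on the log2 scale, edgeR adjusted p = 0.0526) nor in HH (0.34 ± 0.15, edgeR adjusted p = 0.104).

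**Figure D3:**
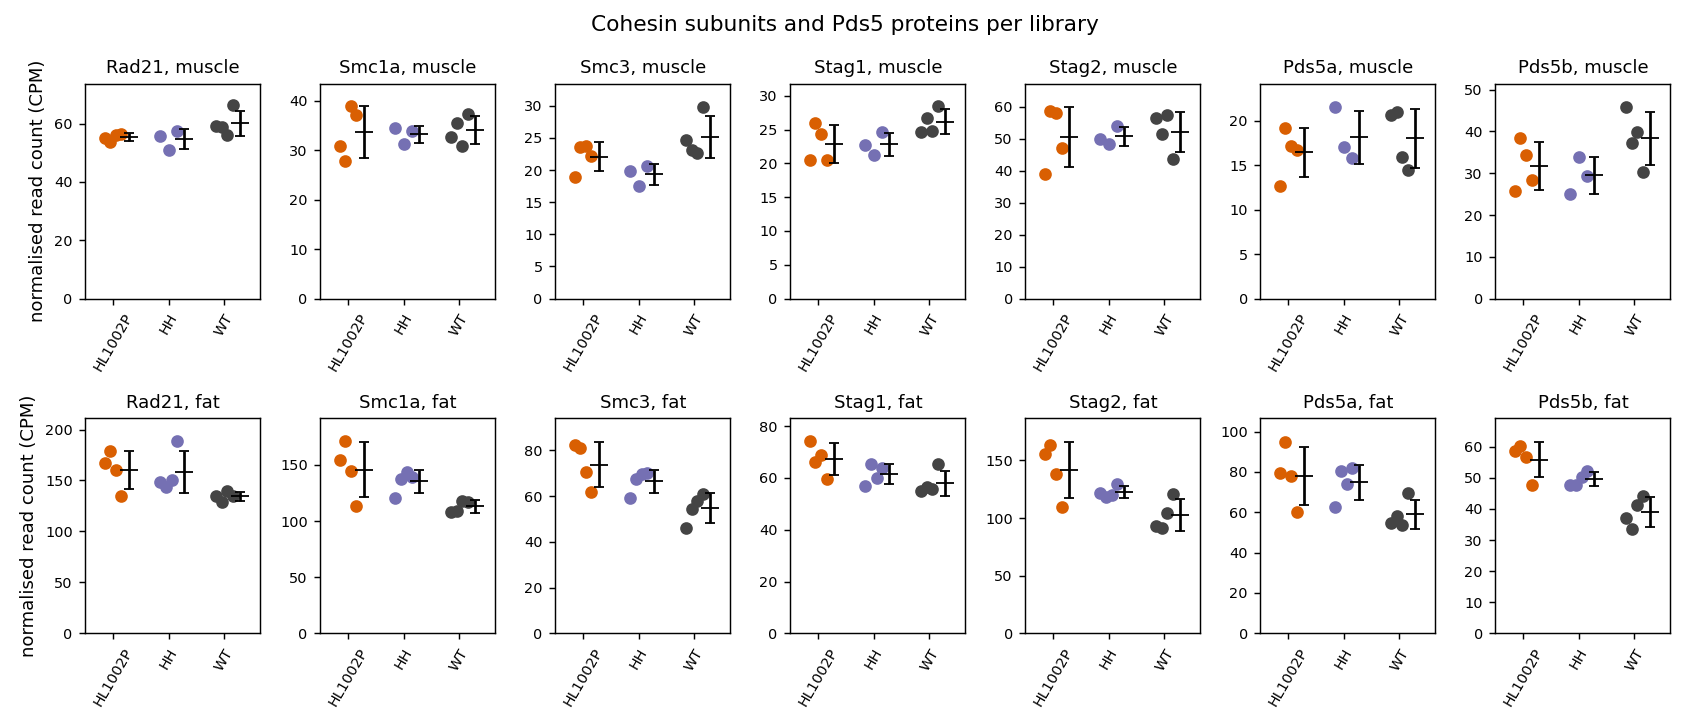
Normalised read counts (CPM) of the 5 cohesin subunits and of Pds5a and Pds5b in gastrocnemius (top) and fat (bottom). Each point is a library and the bar the mean ± SD; in fat, Pds5b is at 47.7 to 60.3 CPM in HL1002P, 47.7 to 52.3 in HH and 33.5 to 44.3 in WT, without overlap between either mutant and WT.

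The counts in fat depended on single libraries. With 1 library left out at a time, Pds5b kept its HL1002P call in 8 of 8 fits, Espl1, Smc3 and Stag2 kept theirs in 4 and Smc1a in 1, and of the HH calls Espl1 kept its own in 4 and Pds5b in 3. Leaving out HL1002P replicate 4 raised the HL1002P count to 8 of 8 partners, and leaving out WT replicate 1, HL1002P replicate 1 or HL1002P replicate 2 lowered it to 1, Pds5b in each case. The count was 2 without WT replicate 2 and 3 without HL1002P replicate 3. In HH fat it was 0 without WT replicate 1, HH replicate 2 or HH replicate 3, and 1 without WT replicate 2, WT replicate 4 or HH replicate 4.

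Between the mutants, 0 of the 8 partners passed in fat by edgeR (0% of all genes passed), 0 had an unadjusted p under 0.05, and DESeq2 and limma voom also called 0. Their log2 fold changes, HL1002P against HH, ran from -0.07 to 0.21. Over all genes 535 had an unadjusted p under 0.05 in that comparison.

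Markers of several cell types moved with the fat results. Over all genes, 17.3% were higher and 14.5% lower in HL1002P fat, and 12.3% and 8.59% in HH fat. An unadjusted p under 0.05 was reached by 46.0% of all genes in HL1002P fat and by 39.5% in HH fat. All 12 lymphocyte markers rose in HL1002P fat and 9 of 12 in HH fat; their summed CPM was 1212 to 3230 in HL1002P, 1486 to 2781 in HH and 85.1 to 630 in WT, and none of the 12 was at 0 in any fat group. Of 20 proliferation markers, 17 rose in HL1002P and 7 in HH, with sums of 174 to 772, 226 to 522 and 138 to 263 CPM in HL1002P, HH and WT. Fat cell markers fell in HL1002P for 5 of 8 genes and in HH for 0 of 8 by edgeR (5 had an unadjusted p under 0.05 in HH). Endothelial markers fell in HL1002P for 4 of 5 genes and in HH for 3 of 5, with sums of 505 to 700 CPM in HL1002P, 601 to 753 in HH and 713 to 1113 in WT. Of 9 macrophage markers, 1 rose in HL1002P and 0 in HH by edgeR (3 had an unadjusted p under 0.05 in HH). Mammary epithelium markers set single libraries apart within each group, with sums of 9.92 to 929 CPM in HL1002P, 5.15 to 622 in HH and 1.35 to 1545 in WT; 1 of the 8 was at 0 in all fat libraries of each group, and 0 of the 7 tested passed by edgeR in either mutant, also at an unadjusted p under 0.05. The part of these markers in the results, other than the lymphocyte list, was not tested. With the mean log2 CPM of the lymphocyte markers as a covariate, 0 of the 8 partners passed in either fat comparison, and the log2 fold change of Espl1 was 0.60 in HL1002P (edgeR adjusted p = 0.9995) and 0.79 in HH (edgeR adjusted p = 0.953). Genotype and lymphocyte content move together in these libraries, and their parts in the result cannot be told apart.

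**Figure D4:**
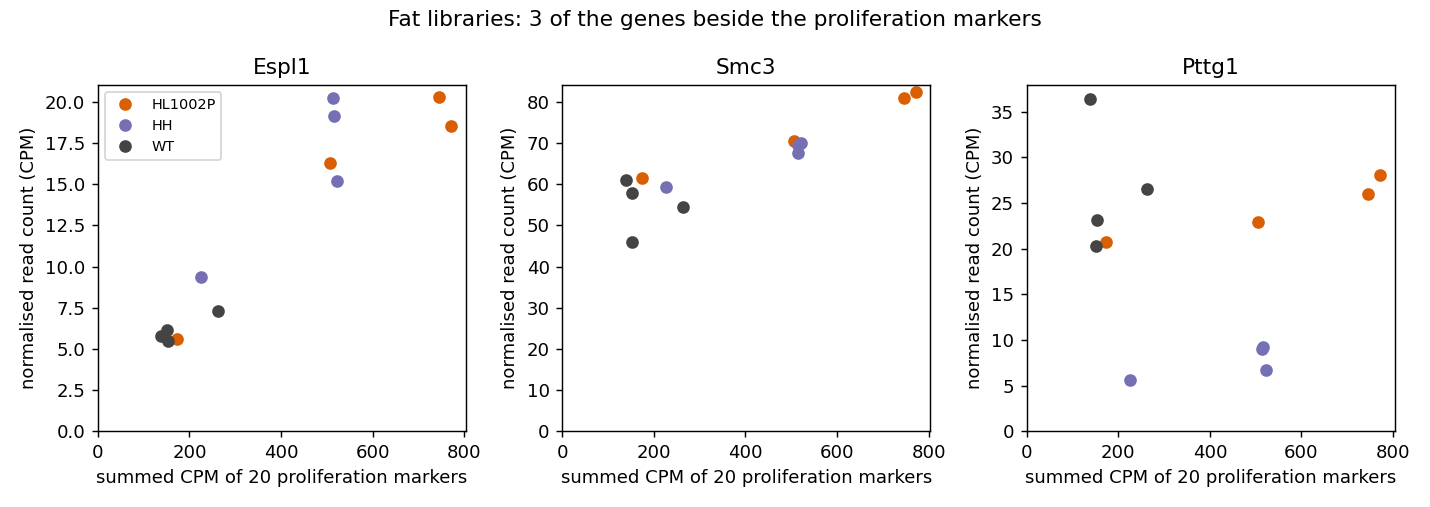
Normalised read counts (CPM) of Espl1, Smc3 and Pttg1 in fat against the summed CPM of 20 proliferation markers, 1 point per library. The libraries with the highest Espl1 are those with sums over 500 CPM, HL1002P replicate 4 (sum 174) and HH replicate 1 (sum 226) lie near WT for Espl1, and Pttg1 is below 10 CPM in HH libraries with low and with high sums.

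For Espl1, 5 fat genes had the most similar profile by Pearson correlation of log2 CPM over the 12 fat libraries, among 16265 genes: Pole, a subunit of a replicative DNA polymerase, E2f8, an atypical E2F repressor, Ncapd2, a condensin subunit, Neil1, a base excision repair glycosylase, and Ankle1 (r = 0.98 for each). These libraries share genotype groups and lymphocyte content, so r describes a likeness only. Pole, for example, averaged 21.5 ± 7.84 CPM in HL1002P fat, 21.4 ± 5.08 in HH fat and 10.4 ± 0.818 in WT fat, and Ncapd2 averaged 61.2 ± 18.1, 60.4 ± 16.5 and 30.1 ± 3.79 CPM in the same groups.

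In muscle no partner passed the test. Of 8, 0 passed in HL1002P against WT (0.117% of all genes passed), 0 in HH against WT (0.377%) and 0 in HL1002P against HH (0.0206%), by edgeR and also by DESeq2 and limma voom. At an unadjusted p under 0.05 there were 1 (Espl1), 2 (Smc3 and Pds5b) and 0 of the 8. Of all genes, 10.5%, 16.6% and 4.60% reached it in these comparisons. The median log2 fold change of the partners was -0.12 in HL1002P and -0.09 in HH, and that of all genes 0.00 and 0.01.

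The cohesin genes of muscle lay at or below WT. Smc3 had 18.9, 23.5, 23.7 and 22.2 CPM in HL1002P muscle, 19.9, 17.5 and 20.6 CPM in HH muscle, and 24.7, 23.1, 22.6 and 29.8 CPM in WT muscle. All 3 HH libraries were below every WT library, with a log2 fold change of -0.38 ± 0.13 (unadjusted p = 0.0113, edgeR adjusted p = 0.175). Stag1 was the other partner whose HH and WT libraries did not overlap, at 22.7, 21.2 and 24.57 CPM in HH and 24.60, 26.7, 24.8 and 28.5 CPM in WT; 6.56% of all genes were lower in HH without overlap. Pds5b had 25.9, 38.5, 34.3 and 28.4 CPM in HL1002P, 25.1, 33.9 and 29.5 CPM in HH, and 45.7, 37.2, 40.0 and 30.3 CPM in WT, with log2 fold changes of -0.27 ± 0.16 in HL1002P and -0.38 ± 0.17 in HH (edgeR adjusted p = 0.567 and 0.295). Rad21 stayed within 53.7 to 56.6 CPM in HL1002P, 51.0 to 57.5 in HH and 56.2 to 66.2 in WT. Smc1a, Stag2 and Pds5a overlapped widely between the 3 groups.

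**Figure D5:**
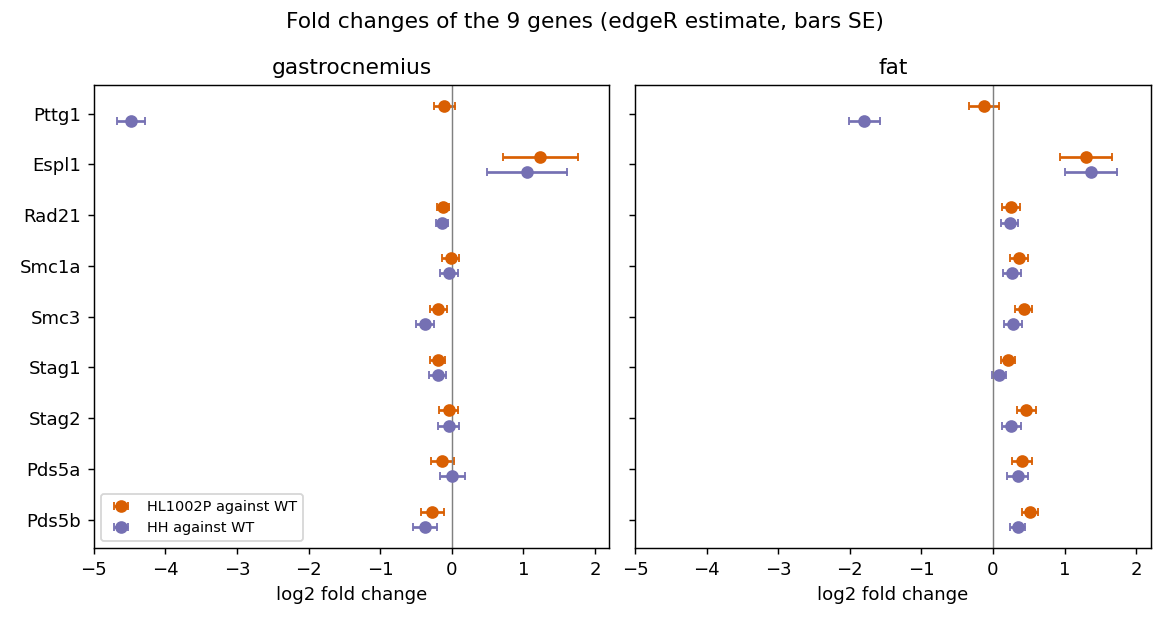
Log2 fold changes of the 9 genes in HL1002P (orange) and HH (purple) against WT, in gastrocnemius (left) and fat (right), with bars of 1 SE. Pttg1 is at -4.48 and -1.80 in HH and near 0 in HL1002P, and the cohesin genes lie right of 0 in fat. Espl1 is at 1.30 in HL1002P and 1.37 in HH fat. In muscle it is at 1.24 and 1.05, where neither value passed the test.

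The difference of each mutant's effect between fat and muscle was tested in a fit of all 23 libraries. For HL1002P it passed for 4 of 8 partners (15.3% of all genes), each with the larger value in fat. These were Pds5b (0.83 ± 0.20 in fat minus muscle, edgeR adjusted p = 0.0185), Smc3 (0.66 ± 0.17, adjusted p = 0.0215), Stag1 (0.46 ± 0.14, adjusted p = 0.0369) and Rad21 (0.42 ± 0.14, adjusted p = 0.0485). For HH it passed for 2 of 8 (5.66% of all genes), Smc3 (0.71 ± 0.18, edgeR adjusted p = 0.0276) and Pds5b (0.77 ± 0.21, adjusted p = 0.0413). The fit treats libraries as independent, and the lymphocyte markers that differ in fat are near 0 in muscle (a summed 1.83 to 7.47 CPM over the 12 genes). Of the 16 fits with 1 library left out, Pds5b kept its HL1002P call in 16, Smc3 in 13, Stag1 in 7 and Rad21 in 2. The HL1002P count was 7 without HL1002P fat replicate 4, 1 without WT fat replicate 1, HL1002P fat replicate 1 or HL1002P fat replicate 2, and 2 without any of WT muscle replicate 2 or 4, HL1002P muscle replicate 1 or 4, WT fat replicate 2 or HL1002P fat replicate 3. The HH count was 0 without HH muscle replicate 1, WT fat replicate 1, HH fat replicate 2 or HH fat replicate 3, and 1 without any WT muscle library, HH muscle replicate 2 or 3, WT fat replicate 2 or HH fat replicate 4.

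Between the WT tissues, levels were compared in the same fit, since CPM scaled within a tissue cannot be set across tissues. Pttg1 was lower in WT fat than in WT muscle (log2 fold change -1.48 ± 0.19, edgeR adjusted p = 9.8e-07), and Pds5b was too (-1.16 ± 0.15, adjusted p = 5.3e-07). Espl1 was higher in fat (2.96 ± 0.48, edgeR adjusted p = 1.4e-05), as were Smc1a (0.54 ± 0.12) and Pds5a (0.52 ± 0.16; adjusted p = 0.000607 and 0.00742). Sign and size of these values rest on the scaling between tissues, which takes most genes as unchanged. On the scaling within a tissue, Pds5b averaged 39 CPM in WT fat and 38.3 CPM in WT muscle, and Pttg1 26.6 and 32.4 CPM. In all, 4 of the 8 partners differed, against 75.4% of all genes, whose median was 0.16. The balance of the Pds5 genes accordingly differed by tissue: the ratio of Pds5b to Pds5a RPKM was 0.404 ± 0.0366 in HL1002P, 0.373 ± 0.0399 in HH and 0.372 ± 0.0449 in WT fat, and 1.08 ± 0.0894, 0.934 ± 0.247 and 1.20 ± 0.169 in muscle of the same genotypes.

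Genes whose proteins load, acetylate, deacetylate, protect or release cohesin made up a list of 12 symbols, of which 8 were in the table. These were Nipbl, Mau2, Cdca5, Esco1, Esco2, Hdac8, Sgol1 and Sgol2. The remaining symbols had no row, so the list was followed only in part, without a gene whose protein releases the ring. In fat, 5 of the 8 rose in HL1002P (17.3% of all genes were higher) and 2 of the 8 in HH (12.3%), and the other 6 did not pass in HH. In muscle 0 of the 5 tested passed in either mutant. In each, 1 had an unadjusted p under 0.05 (10.5% and 16.6% of all genes in HL1002P and HH). In HL1002P fat the median log2 fold change of the 8 was 0.71. Esco1, an acetyltransferase of Smc3, averaged 53.4 ± 13.8 CPM in HL1002P fat and 28.1 ± 4.20 CPM in WT fat (n = 4 each; log2 fold change 0.93 ± 0.18, edgeR adjusted p = 0.00877). Sgol1, the shugoshin that guards centromeric cohesin, rose by 1.66 ± 0.46 (adjusted p = 0.0218) and the cohesin loader Nipbl by 0.48 ± 0.13 (adjusted p = 0.0231), both in HL1002P. Esco2, the acetyltransferase of S phase, rose by 1.997 ± 0.58 in HL1002P (edgeR adjusted p = 0.0262), and Cdca5, which encodes sororin, also rose. In HH fat, Cdca5 rose by 1.495 ± 0.44 (edgeR adjusted p = 0.0364) and Nipbl by 0.45 ± 0.13 (adjusted p = 0.0386). The meiotic cohesin genes were too low to test in muscle, and 0 of the 3 tested in fat passed in either mutant. Smc1b alone had an unadjusted p under 0.05 there, as did 46.0% and 39.5% of all genes in HL1002P and HH fat.

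The anaphase-promoting complex, which ends the hold of securin on separase, was followed through 18 genes, its subunits, activators and E2 enzymes. Of these, 1 rose and 3 fell in HL1002P fat (31.8% of all genes passed), and 1 rose and 3 fell in HH fat (20.8% of all genes passed). The gene that rose in both was Cdc20, the mitotic activator and also 1 of the proliferation markers, at 19.99 ± 8.67 CPM in HL1002P, 18.3 ± 5.96 in HH and 7.28 ± 1.13 in WT fat (n = 4 each; log2 fold change 1.46 ± 0.35 and 1.33 ± 0.35, edgeR adjusted p = 0.0145 and 0.0260). Cdc27, Anapc2 and Cdc16, core subunits, fell in both. Cdc27 fell by 0.55 ± 0.15 in HL1002P fat (edgeR adjusted p = 0.0199) and by 0.63 ± 0.15 in HH fat (adjusted p = 0.0179). In muscle 0 of the 18 passed by edgeR, and the medians were -0.04 in HL1002P and -0.08 in HH. An unadjusted p under 0.05 was reached by 0 and 1 of them in HL1002P and in HH against WT (10.5% and 16.6% of all genes).

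The genes most like Pttg1 were ranked by the smaller of their Pearson correlations with it over the 11 muscle and the 12 fat libraries, among 14273 genes tested in both. They were Gadd45gip1 (r = 0.87 in both tissues), a mitochondrial ribosome protein, Nme6 (0.93 and 0.85), of the nucleoside diphosphate kinase family, the small nucleolar RNA host gene Snhg6 (0.76 and 0.77), Slfn8 (0.75 and 0.91) and the predicted gene Gm8801 (0.78 and 0.74). Libraries of a genotype share a level here, so r also carries the difference between genotypes for which Pttg1 was chosen. Gadd45gip1 averaged 36.7 ± 10.1 CPM in HL1002P, 17.2 ± 2.60 in HH and 32.5 ± 3.89 in WT muscle, and 30.1 ± 6.00, 17.6 ± 1.56 and 27.7 ± 3.77 CPM in fat of the same genotypes. Gm8801 had 2 counts over the 3 HH muscle libraries and 2 over the 4 HH fat libraries, against 177 and 316 in HL1002P and 248 and 349 in WT muscle and fat. Its absence was not particular to HH, since its lowest HL1002P library was at 0 CPM in muscle and in fat. The HL1002P libraries ranged from 0 to 1.65 CPM in muscle and from 0 to 3.16 CPM in fat. In WT the ranges were 0.778 to 2.01 and 1.09 to 2.68 CPM. The 5 genes lie on chromosomes 8, 9, 1, 11 and 17.

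The genes beside Pttg1 on chromosome 11 were also followed. Distances are those between the lower coordinates of the genes. Within 5 Mb, 0 of 25 genes tested in muscle passed by edgeR in HL1002P against WT, HH against WT or HL1002P against HH. Of all genes, 0.117%, 0.377% and 0.0206% passed there. An unadjusted p under 0.05 was reached by 2, 5 and 1 of the 25 (10.5%, 16.6% and 4.60% of all genes). In fat 15 of 31 passed in HL1002P against WT (31.8% of all genes) and 10 of 31 in HH against WT (20.8% of all genes). Of the 5 nearest tested on each side, C1qtnf2 fell by 1.64 ± 0.35 in HH fat (edgeR adjusted p = 0.0144) and Pwwp2a rose by 0.66 ± 0.17 (adjusted p = 0.0252). Both changed alike in HL1002P fat, with log2 fold changes of -1.33 ± 0.35 and 0.64 ± 0.17 (edgeR adjusted p = 0.0185 and 0.0205). HL1002P against HH fat gave 0.31 ± 0.35 and -0.02 ± 0.17, and neither passed. Slu7 (chr11:43433726-43447982), the nearest tested gene at higher coordinates, had log2 fold changes of -0.09 ± 0.09 in HH muscle and -0.01 ± 0.10 in HH fat. Its distance of 13.5 kb counts from the lower coordinate of Pttg1, where the transcript of this minus-strand gene ends. Slu7 thus lies upstream of Pttg1 and nearer to its transcript start. Pttg1ip, the other symbol of the table that begins with Pttg and the gene of a securin-binding protein, averaged 48.0 ± 5.63 CPM in HL1002P, 48.6 ± 7.16 in HH and 44.5 ± 6.55 in WT muscle. In fat it averaged 178 ± 36.8 CPM in HL1002P, where it fell by 0.69 ± 0.20 (edgeR adjusted p = 0.0245), 202 ± 40.3 in HH and 288 ± 51.8 in WT.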

How the data were processed

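Polyadenylated RNA of 23 libraries was sequenced with a kit that does not keep the strand (TruSeq RNA v2, per the labels' protocols). The authors deposited raw counts per gene symbol in 1 table. The submitters' processing notes name TopHat2 2.0.14, Bowtie2 2.2.6, featureCounts 1.4.6 and the build mm10; the annotation, the strand setting and the rule for multi-mapping reads are not stated in those sources. Unnamed or clone-named genes overlap Espl1, Smc1a, Stag1, Stag2, Pds5a and Pds5b and are not rows of the table, so their reads cannot be told apart. No column of the table was left unused, and 3605 genes had no count.

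Tests on the counts used edgeR 4.0.16 under R 4.3.3 (TMM factors, low counts removed by filterByExpr, quasi-likelihood F tests over all libraries of a tissue, Benjamini-Hochberg adjustment over all genes tested, threshold 0.05). The difference between tissues was an interaction term over all 23 libraries. Alternatives were RLE factors, no filter, a mean of at least 1 CPM, DESeq2 1.42.0, voom of limma 3.58.1, the replicate number as a block, presence of Xist or lymphocyte markers as a covariate, the compared groups alone, and each library left out. Levels are CPM on TMM-scaled library sizes, or RPKM over the exons of RefSeq-matched GENCODE transcripts. Positions and promoters are those of GRCm38.p6. Scripts were tested on simulated counts.

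The genes and lists were chosen with earlier results of these data known. Named are the 9 genes and Bub1b, up to 4 members of each list past the test with the smallest p, the 5 genes most like Pttg1 (both tissues, log2 CPM with a prior count of 2) and Espl1 (fat), neighbours of Pttg1 past the test in HH, and symbols that begin with Pttg. Slu7 and Smc1b were picked outside this rule, with their values in view. The cohesin regulators found in the table are also named, to show which part of their list was followed.

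Whether replicate numbers pair libraries was checked by correlating deviations from the group means across genes, which are not independent replicates. In HL1002P against HH muscle all 3 pairs had r of 0.217 to 0.286, so pairing by number is possible there but not shown. The values given above come from the fit without blocks, and the blocked fit also called 0 partners in that comparison. In the other comparisons not every pair was above 0.1. Reads were counted without molecular identifiers, so several can stem from 1 molecule.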

Additional observations from a re-analysis of the deposited data

Results flagged for a closer look

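A library stood far from the rest of its group in 2 of 45 checks, each of 1 gene in 1 group of 4 libraries. Chance flags about 1 in 20, and checks on the same libraries are not independent. Rad21 was at 189 CPM in HH fat replicate 4, with the nearest library of the group at 151 and the lowest at 144. Stag1 was at 65.2 CPM in WT fat replicate 4, with the nearest at 56.4 and the lowest at 54.8.

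The effect of a mutant differed between fat and muscle, by the edgeR interaction test over all 23 libraries, for these cohesin genes. The log2 effect in fat minus that in muscle was 0.42 for Rad21, 0.66 for Smc3, 0.46 for Stag1 and 0.83 for Pds5b in HL1002P (adjusted p = 0.0485, 0.0215, 0.0369 and 0.0185). In HH it was 0.71 for Smc3 and 0.77 for Pds5b (edgeR adjusted p = 0.0276 and 0.0413). Lymphocyte markers rose in fat of both mutants, and their part in these values was not tested in the fit of both tissues.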

How the results depend on the processing

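The number of partners past the test stayed at 0 in the 3 muscle comparisons and in HL1002P against HH fat under every alternative run, and was 3 to 4 between the WT tissues. In HL1002P against WT fat (5 as reported) it was 6 with DESeq2, 4 with limma voom and 3 with the replicate block. In that comparison it was 0 with lymphocyte markers as a covariate, and 1 to 8 with 1 library left out. In HH against WT fat (2) it was 1 without a filter on low counts, with limma voom, with the replicate block, with presence of Xist as a covariate and with the compared groups alone, 0 with the lymphocyte covariate, and 0 to 2 with 1 library left out. For the HL1002P effect in fat minus muscle (4) it was 5 with DESeq2, 3 with limma voom, 2 without the filter and 2 with the replicate block. It was 1 to 7 with 1 library left out. For HH (2) it was 3 with DESeq2, 1 without the filter and with limma voom, and 0 with the replicate block. With 1 library left out it was 0 to 2. The log2 fold change of Pttg1 in HL1002P against WT ran from -0.17 to 0.0267 in muscle and from -0.22 to 0.0662 in fat (0.0055 without HL1002P fat replicate 4) with 1 library left out, and passed the test in none of these fits. With the lymphocyte covariate, Smc3 in HH fat turned to -0.053 and Bub1b in HL1002P fat to -0.45. The replicate numbers were not shown to pair libraries, and the cause of the other changes was not tested. Over single genes, 1018 of the alternative values kept direction and call, 111 lost the call, 13 gained it, 1 moved and 5 turned in sign. Only fold changes at least as large as their own SE were counted, besides those of Pttg1 in HL1002P against WT. Values that passed in neither fit count as having kept the call. Espl1 in muscle rested on 67 to 146 counts per group.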
